A study of Sus scrofa with 6 samples.

Results

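miR-143 and miR-145 are a cluster of neighbouring microRNA (miRNA) hairpins, and both arms of each are listed in the miRNA table of this study of pig skin. The members were taken by name, ssc-miR-143-3p, ssc-miR-143-5p, ssc-miR-145-3p and ssc-miR-145-5p, which makes 4 of the 898 rows. The study sequenced small RNA of skin tissue of the Xiang pig (Sus scrofa), a miniature breed from China, and asks which miRNAs bear on melanin formation. There are 3 libraries of black skin (S03, S04 and S05) and 3 of white skin (S02, S06 and S07). All were of the Xiang strain and kept frozen in the preservative RNAwait, and the labels give no genotype, age, sex, body site, animal or batch. Nothing in the labels ties the libraries to separate animals. The spread behind each p-value is that between these libraries and could be technical.

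Each hairpin is cut into a mature strand from its 5′ side (5p) and one from its 3′ side (3p), and usually a single arm accumulates. miR-143 and miR-145 are enriched in smooth muscle, where in mice serum response factor and myocardin switch on their shared transcript and the miRNAs help keep the cells contractile. In skin such cells lie in vessel walls and in the muscles that raise hairs, while fibroblasts and other mesenchymal cells make the cluster as well. In cultured mouse melanocytes miR-145 has been linked to pigment genes, and in alpaca melanocytes miR-143-5p has been linked to pigment formation. No protein-coding transcript is in the table, so the smooth muscle origin implied by the name was not tested against mRNA markers.

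In the RefSeq gene table of Sscrofa11.1, MIR143 lies on chromosome 2 at 150578738 to 150578817 and MIR145 at 150580126 to 150580211, with 1308 bases between them. Both precursors lie within the annotated span of IL17B, a cytokine gene, which runs from 150513611 to 150583640. The table gives no strand and no exons, so whether they are intronic or share its strand was not determined here. The protein-coding gene LOC100514340 ends 536 bases before MIR143, and CSNK1A1, a casein kinase gene, starts 32633 bases after MIR145.

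Levels are in RPM, the reads of a miRNA for each 1e+06 reads of all listed miRNAs, and their steps gave back the whole reads. The libraries held 7332769 to 8647930 reads in black skin and 6454685 to 10165949 in white skin. For the scarcest member, ssc-miR-143-5p, this gave 2060 to 2677 reads in black libraries and 962 to 2649 in white libraries. The 95% Wilson interval of a single library reached at most 6.32% of its value to either side for that arm and at most 0.488% for ssc-miR-143-3p. These intervals hold no more than counting error, because amplified reads do not count molecules one by one. Levels of different miRNAs also depend on how well each sequence is captured in library preparation, so the order of the arms is an order of reads.

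The order of the 4 arms was the same in all 6 libraries, with ssc-miR-143-3p first, then ssc-miR-145-5p, ssc-miR-145-3p and ssc-miR-143-5p. Averaged over the 6 libraries they ranked 7, 43, 70 and 100 among the 898 rows. The cluster made up 8.45%, 6.50% and 6.99% of the miRNA reads in black libraries S03, S04 and S05, against 3.19%, 2.67% and 3.42% in white libraries S02, S06 and S07. All 3 black libraries lay above all 3 white ones. The mean shares were 7.31 ± 1.01% in black skin and 3.09 ± 0.383% in white skin (SD, n = 3 each), a difference of 4.22 points with a two-sided exact permutation p of 0.1, the smallest that 3 against 3 libraries allow. Nearly all of the share was ssc-miR-143-3p, which held 95.5 ± 1.37% of the cluster's reads in black skin and 92.2 ± 1.05% in white skin (SD, n = 3 each).

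**Figure D1:**
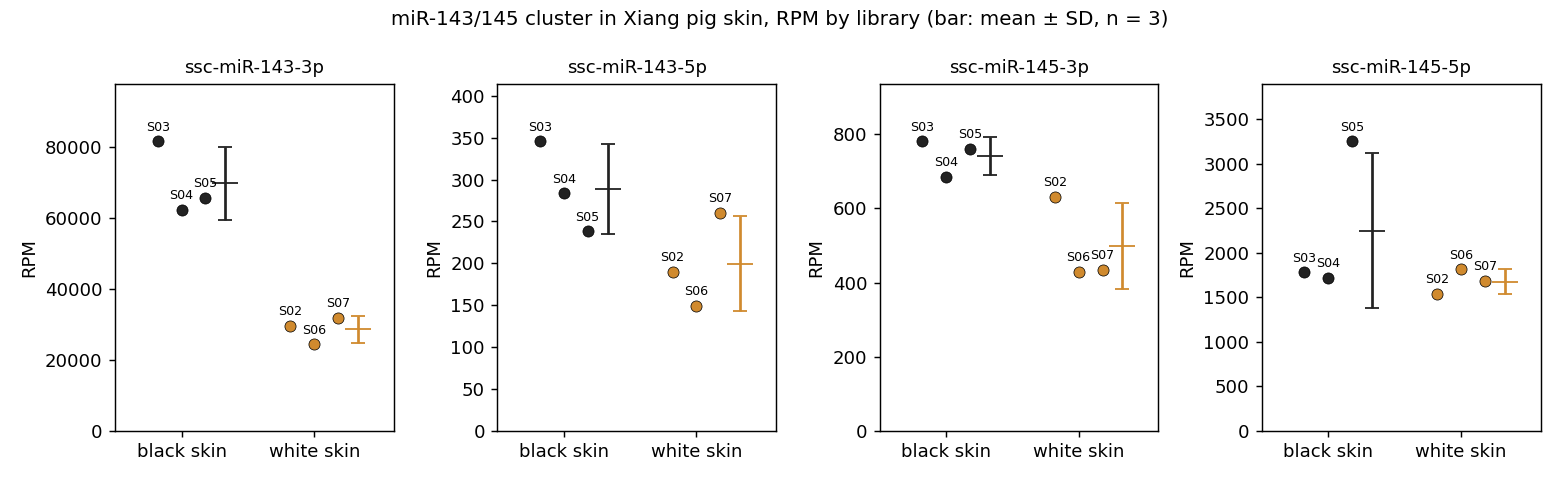
RPM of the 4 arms in each library of black skin (dark points) and white skin (orange points), each panel with its own linear axis from 0; the bar beside each group is the mean ± SD of 3 libraries. The groups are apart for ssc-miR-143-3p and ssc-miR-145-3p, overlap for the other 2 arms, and black library S05 stands at 3253 RPM of ssc-miR-145-5p, above the other 5 libraries.

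Of the 4 arms, 1 passed the test between black and white skin, where 7.05% of the 454 tested miRNAs did (limma with Benjamini-Hochberg adjustment over all 454, threshold 0.05), and 3.96% of the 454 passed as higher in black skin. The called arm was ssc-miR-143-3p, the main product of the miR-143 hairpin, and it was higher in black skin. The other 3 arms had positive differences that did not pass. All 3 black libraries stood above all 3 white ones for 2 of the 4 arms, against 13.4% of the 454 tested. The arms share a locus and often a hairpin, so they are not independent measures. All 4 were abundant enough to be tested, and their median difference was 0.57 in log2(RPM + 1), against 0.00218 over the 454.

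ssc-miR-143-3p measured 81596, 62317 and 65685 RPM in black libraries S03, S04 and S05, against 29566, 24337 and 31818 RPM in white libraries S02, S06 and S07. Its lowest black value was above its highest white value, and it ranked 5 among the 898 rows in each black library but 10, 11 and 7 in the white libraries. The means were 69866 ± 10297 RPM in black skin and 28574 ± 3838 RPM in white skin (SD, n = 3 each). The difference was 1.29 in log2(RPM + 1) with a standard error of 0.17 and a 95% interval of 0.90 to 1.68 (limma, adjusted p = 0.00314). It passed without each of the 6 libraries in turn, with differences of 1.17 to 1.37 and adjusted p from 0.00588 to 0.0184 (limma).

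The size of this rise set ssc-miR-143-3p apart in absolute terms. The gain of 41293 RPM was the highest of all 898 rows, ahead of 27786 RPM for ssc-miR-148a-3p, which did not pass the test (limma, adjusted p = 0.327). Among the 17 tested miRNAs that averaged at least 10000 RPM, the ratio of black to white means was 2.45 for ssc-miR-143-3p and 0.605 to 1.62 for the other 16. On the log2 scale, where scarce miRNAs can move further, its difference ranked 22 of 454. RPM are shares, so an arm that gains this much lowers the share of every other miRNA. With ssc-miR-143-3p left out of the total, its own difference was 1.35 and the median of all 454 was 0.0528.

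**Figure D2:**
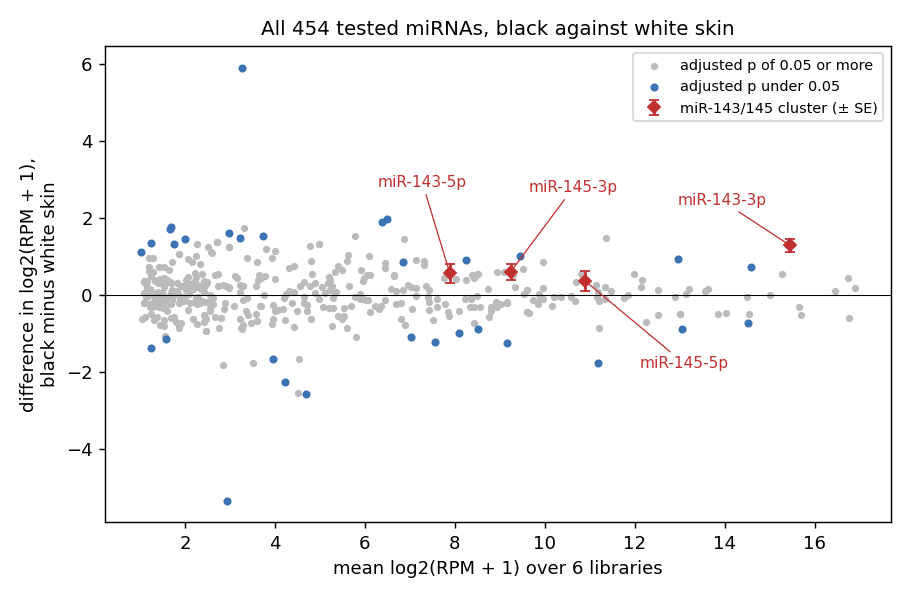
Difference in log2(RPM + 1), black minus white skin, against mean log2(RPM + 1) over the 6 libraries for the 454 tested miRNAs (grey, or blue where the adjusted p is under 0.05), with the 4 arms of the cluster as red diamonds ± standard error. ssc-miR-143-3p lies far to the right at a difference of 1.29, and the other arms lie between 0.36 and 0.60.

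ssc-miR-143-5p, the scarcer arm of the same hairpin, measured 346, 284 and 238 RPM in black libraries S03, S04 and S05, against 189, 149 and 261 RPM in white libraries S02, S06 and S07. White library S07 lay above black library S05, so the groups overlapped. The means were 289 ± 53.9 RPM in black skin and 199.7 ± 56.5 RPM in white skin (SD, n = 3 each), a difference of 0.55 in log2(RPM + 1) with a 95% interval of -0.03 to 1.13 that did not pass (limma, adjusted p = 0.215). Without S06 the difference was 0.36, and without S07 it was 0.76 (limma, adjusted p = 0.486 and 0.133).

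ssc-miR-145-3p, the scarcer arm of the miR-145 hairpin, measured 781, 685 and 762 RPM in black libraries S03, S04 and S05, against 632, 429 and 434 RPM in white libraries S02, S06 and S07. The groups did not overlap, and white library S02 was the nearest to the black ones. The means were 742 ± 50.9 RPM in black skin and 498 ± 116 RPM in white skin (SD, n = 3 each). The difference of 0.60 in log2(RPM + 1), with a 95% interval of 0.13 to 1.06, did not pass over all miRNAs (limma, adjusted p = 0.119). Without S02 it was 0.78 and passed (limma, adjusted p = 0.0416).

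ssc-miR-145-5p, the main arm of its hairpin and the one known in mouse and human smooth muscle for lowering KLF4 and KLF5, measured 1779, 1713 and 3253 RPM in black libraries S03, S04 and S05. In white libraries S02, S06 and S07 it measured 1534, 1813 and 1680.0 RPM. Black libraries S03 and S04 lay within the range of the white libraries, and S05 alone stood above it. The means were 2248 ± 870.3 RPM in black skin and 1676 ± 139.6 RPM in white skin (SD, n = 3 each), a difference of 0.36 in log2(RPM + 1) with a 95% interval of -0.21 to 0.93 (limma, adjusted p = 0.433). Without S05 the difference was 0.0624 (limma, adjusted p = 0.878).

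Library S05 held 1.86 times the mean of the other 2 black libraries for ssc-miR-145-5p, but 1.04 times for ssc-miR-145-3p, 0.913 times for ssc-miR-143-3p and 0.757 times for ssc-miR-143-5p. Of the 454 tested miRNAs, 25 (5.51%) stood as high or higher in S05 by this measure. The excess was thus seen in 1 of the 4 arms. The next highest such ratio of any member was 1.54, for ssc-miR-143-5p in white library S07. ssc-miR-145-5p had the widest spread of the 4 in black skin, with a coefficient of variation of 38.7%, and the narrowest in white skin, at 8.33%. The median over the tested miRNAs was 21.3% in black skin and 28.5% in white skin.

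Ratios between products of one locus within a library do not depend on scaling to a total. For miR-143 the 3p arm held 236, 219.8 and 276 times the reads of the 5p arm in black libraries S03, S04 and S05, against 156, 163 and 122 times in white libraries S02, S06 and S07. The groups did not overlap, nor did they for 36.6% of the 41 hairpins with both arms tested. The log2 ratio of 3p to 5p, taken on RPM + 1, was 7.92 ± 0.17 in black skin and 7.18 ± 0.22 in white skin (SD, n = 3 each). The difference of 0.74 (standard error 0.24) missed the threshold among those 41 (limma, adjusted p = 0.0686), of which 12.2% passed. It passed with a pseudocount of 10 (0.76, limma, adjusted p = 0.0175) and among the 30 hairpins whose arms both reached 10 RPM in 3 libraries (0.74, limma, adjusted p = 0.0208). Ranked by how unequal its arms were, miR-143 came 4 of the 41, and 8 of the 41 had a difference between the groups of at least its size in either direction, itself included.

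The miR-145 hairpin favoured its 5p arm, and by much less. ssc-miR-145-5p held 2.28, 2.50 and 4.27 times the reads of ssc-miR-145-3p in black libraries S03, S04 and S05, against 2.43, 4.23 and 3.87 times in white libraries S02, S06 and S07. The ratio was at least 3.87 in S05, S06 and S07 and at most 2.50 in S03, S04 and S02, so high and low ratios occurred in both colours. The log2 ratio of 3p to 5p was -1.53 ± 0.49 in black skin and -1.77 ± 0.43 in white skin (SD, n = 3 each), a difference of 0.24 with a standard error of 0.31 (limma, adjusted p = 0.703). Its spread within groups ranked 11 of the 41 hairpins, and that of miR-143 ranked 36.

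The hairpins did not keep a fixed proportion to each other. With both arms summed, miR-143 held 32.0, 26.1 and 16.4 times the reads of miR-145 in black libraries S03, S04 and S05, against 13.7, 10.9 and 15.2 times in white libraries S02, S06 and S07. Every black library lay above every white one, and S05 was close to S07. The log2 ratio was 4.58 ± 0.49 in black skin and 3.72 ± 0.24 in white skin (SD, n = 3 each), a difference of 0.86 (two-sided exact permutation p = 0.1, the smallest possible). The ratio of the minor arms, ssc-miR-143-5p over ssc-miR-145-3p, showed no such separation, at -1.38 ± 0.27 in black skin and -1.33 ± 0.53 in white skin on the log2 scale (SD, n = 3 each, two-sided exact permutation p = 1). For the summed arms of miR-145 the levels were 2560, 2398 and 4014 RPM in black libraries S03, S04 and S05, against 2166, 2242 and 2114 RPM in white libraries S02, S06 and S07.

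ssc-miR-143-3p was also set against miR-126, made by the endothelial cells that line vessels. Whether the reads of ssc-miR-143-3p came from vessel walls was not tested. ssc-miR-143-3p held 2.33, 2.02 and 2.30 times the RPM of ssc-miR-126-3p in black libraries S03, S04 and S05, against 1.73, 1.39 and 1.35 times in white libraries S02, S06 and S07, with no overlap between the groups. The log2 ratio was 1.15 ± 0.11 in black skin and 0.57 ± 0.20 in white skin (SD, n = 3 each), a difference of 0.58 (two-sided exact permutation p = 0.1, the smallest possible). In bulk tissue more cells of a type and more of a miRNA per cell cannot be told apart.

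**Figure D3:**
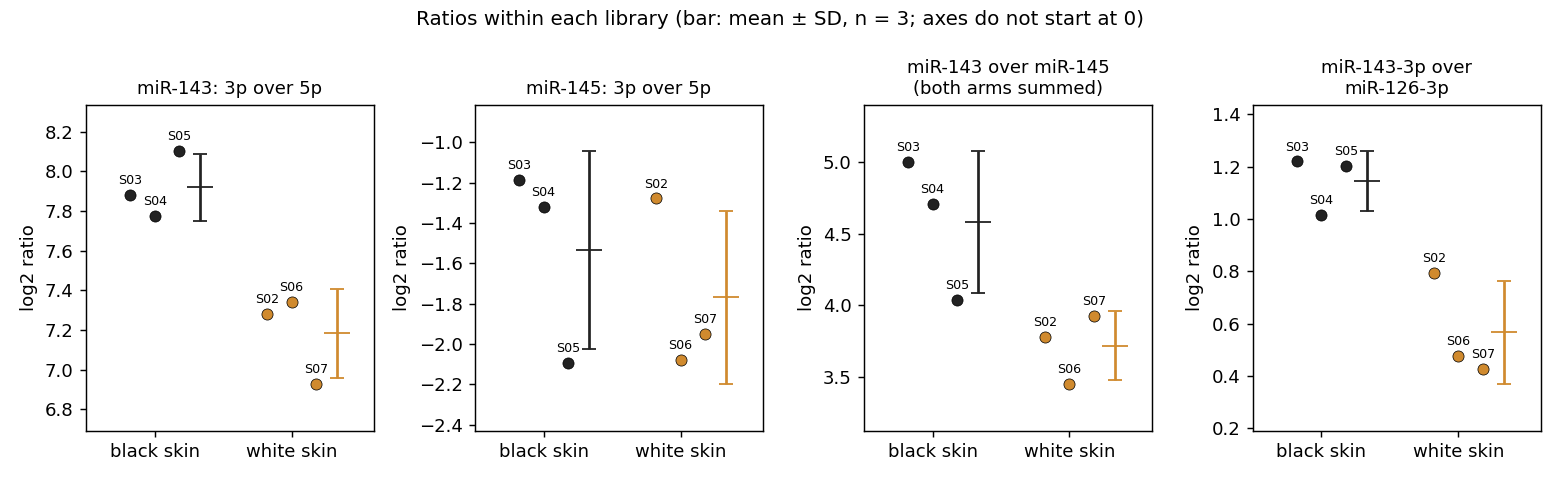
Log2 ratios within each library: 3p over 5p of miR-143, 3p over 5p of miR-145, the miR-143 hairpin over the miR-145 hairpin, and miR-143-3p over miR-126-3p, for black skin (dark points) and white skin (orange points), with mean ± SD of 3 libraries; the axes differ between panels and do not start at 0. Black and white libraries are apart in every panel but that of the miR-145 arms, where S05 lies with S06 and S07.

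No member of the cluster was the closest match of another. Likeness was measured as the root mean square difference between profiles of log2(RPM + 1), each centred on its own mean over the 6 libraries, among the other 453 tested miRNAs. The named miRNAs closest to ssc-miR-143-3p were ssc-miR-490 (0.11), ssc-miR-7143-3p (0.20) and ssc-miR-27a (0.23), and the first of these had 5.03, 3.68 and 4.51 RPM in black libraries S03, S04 and S05, against 1.37, 0.62 and 1.57 RPM in white libraries S02, S06 and S07. Both ssc-miR-490 and the arm ssc-miR-7143-3p are scarce, and the added 1 RPM shrinks their differences on this scale. By the same measure ssc-miR-143-5p ranked 38, ssc-miR-145-3p 39 and ssc-miR-145-5p 129 in closeness to ssc-miR-143-3p.

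Among named miRNAs, ssc-miR-143-5p was closest to ssc-miR-132 (0.14), ssc-miR-378b-3p (0.15) and ssc-miR-126-3p (0.16), with its partner arm at rank 83 of all 453. Among named miRNAs, ssc-miR-145-3p was closest to ssc-miR-26a, ssc-miR-374a-3p and ssc-miR-340, at 0.10 to 0.11 each and at ranks 2, 3 and 4 of all 453. Like it, these had their highest white value in S02, with ssc-miR-26a at 45513 RPM there and at 26682 and 29775 RPM in S06 and S07. The named miRNAs closest to ssc-miR-145-5p were ssc-miR-664-5p (0.22), ssc-miR-30b-5p (0.23) and ssc-miR-217 (0.24), at ranks 3, 5 and 6 of all 453, and they were also highest in S05. ssc-miR-30b-5p, for example, measured 1578, 1847 and 2185 RPM in black libraries S03, S04 and S05, against 1444, 1357 and 1644 RPM in white libraries S02, S06 and S07.

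Other miRNAs tied to the state of smooth muscle, mostly from work in rodent and human vessels, moved in both directions. This list held 18 names besides the cluster, of which miR-663 had no matched row and the row of miR-503 was not tested. Of the 21 tested rows of these names, 1 rose in black skin, 3 fell and 17 did not pass (limma, adjusted over all 454, of which 7.05% were called), with a median of 0.40 against 0.00218 over all tested. The one that rose was ssc-miR-24-2-5p, the 5p arm of a miR-24 hairpin, at 153 ± 15.8 RPM in black skin and 84.1 ± 10.7 RPM in white skin (SD, n = 3 each; 0.86, limma, adjusted p = 0.0423). Those that fell were both arms of miR-10a, which in mouse stem cells takes part in smooth muscle differentiation, and ssc-miR-221-3p, known in rat vessels for promoting the proliferative state. ssc-miR-10a-5p measured 1266 ± 151 RPM in black skin and 4336 ± 513 RPM in white skin, and ssc-miR-221-3p 374 ± 46.0 RPM and 912 ± 272 RPM (SD, n = 3 each; -1.78 and -1.24, limma, adjusted p = 0.000371 and 0.0318). The list's most abundant row besides ssc-miR-143-3p was ssc-miR-21, at 131400.4 ± 29131 RPM in black skin and 117525 ± 39536 RPM in white skin (SD, n = 3 each; 0.19, limma, adjusted p = 0.730).

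Markers of other cell types gave the following values beside the rise of ssc-miR-143-3p, and their part in it was not tested. The counts of called rows stand against the same 7.05% of all tested. Some lists share rows with the smooth muscle list above. All of the melanocyte rows below are also rows of that list, so the fall of ssc-miR-221-3p is counted under both. The striated muscle rows ssc-miR-1, ssc-miR-133a-3p and ssc-miR-133b are shared with it as well. Of 6 endothelial rows 2 rose, both arms of miR-126, with a median of 0.57 and a summed level of 29497 to 35862 RPM in black libraries and 17639 to 24248 RPM in white libraries. That sum was 96.8% to 97.7% ssc-miR-126-3p. ssc-miR-296-3p, a scarce row of the list, had the opposite sign without overlap, at 15.2 ± 2.17 RPM in black skin and 27.9 ± 4.14 RPM in white skin (SD, n = 3 each; -0.83, limma, adjusted p = 0.111). The 5 striated muscle rows, led by ssc-miR-1 and ssc-miR-499-5p, had none called, a median of 0.28 and sums of 959 to 1604 RPM in black and 678 to 2017 RPM in white libraries. ssc-miR-206 had the difference of greatest size in that list, -2.56 (limma, adjusted p = 0.0804), with 14.6, 4.77 and 8.21 RPM in black libraries S03, S04 and S05, against 12.6, 106 and 115 RPM in white libraries S02, S06 and S07. White libraries S06 and S07 thus stood apart from the other 4 on this muscle miRNA. Of 7 blood cell rows, led by ssc-miR-451 and ssc-miR-142-5p, 1 rose, ssc-miR-142-3p (1.96, limma, adjusted p = 0.0324), with a median of 0.13 and sums of 2172 to 5868 RPM in black and 2313 to 6234 RPM in white libraries. The red cell miRNAs ssc-miR-451 and ssc-miR-486 had negative differences that did not pass (-0.87 and -1.68, limma, adjusted p = 0.368 and 0.0743), and ssc-miR-486 did not overlap, at 14.7 ± 12.3 RPM in black skin and 41.3 ± 9.44 RPM in white skin (SD, n = 3 each). ssc-miR-144, another red cell miRNA of the list, had a positive difference that did not pass (1.24, limma, adjusted p = 0.284). Its groups overlapped, at 10.1 ± 9.64 RPM in black skin and 3.34 ± 2.91 RPM in white skin (SD, n = 3 each). Epithelial and keratinocyte miRNAs were read in all libraries, with a matched row for 5 of 12 names. Their 5 rows, led by ssc-miR-205 and ssc-miR-182, had none called, a median of -0.31 and sums of 18739 to 25754 RPM in black and 23475 to 34650.3 RPM in white libraries.

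Of 10 fibroblast and mesenchymal rows, with ssc-miR-199a-3p and its identical row ssc-miR-199b-3p counted once, led by ssc-miR-99a and ssc-miR-10b, 1 fell, ssc-miR-214 (-0.88, limma, adjusted p = 0.0408), with a median of -0.05 and sums of 78938 to 99374 RPM in black and 84958 to 110230.9 RPM in white libraries. Of 5 melanocyte rows, led by ssc-miR-146a-5p and ssc-miR-221-3p, 1 fell, ssc-miR-221-3p, with a median of -0.37 and sums of 2908 to 4611 RPM in black and 3308 to 5157 RPM in white libraries. ssc-miR-204 of that list was higher in every black library, at 116 ± 24.6 RPM in black skin and 64.5 ± 6.68 RPM in white skin, and did not pass (SD, n = 3 each; 0.82, limma, adjusted p = 0.0804). At least 1 row was matched for 4 of 5 endothelial, 5 of 7 striated muscle, 6 of 7 blood cell, 5 of 12 epithelial, 9 of 9 fibroblast and 4 of 10 melanocyte names. Names with no matched row include miR-208a, miR-223, miR-203 and miR-211.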

How the data were processed

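Small RNA libraries of 3 black and 3 white skin samples were grouped by the colour in the labels. The authors deposited 1 table of RPM (each column sums to 1e+06, so the unit was taken from the values). Per the submitters' processing notes, Bowtie and build Sscrofa11.1 were used, with no role or version stated. The sources used here do not name the counting tool, the miRNA database or any filter. RPM are shares of the listed reads. In every library 100% of values were whole multiples of 1 read (tolerance 0.001), which gave the recovered counts of reads.

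Differences, black minus white, were tested with limma 3.58.1 (R 4.3.3), its trend option on, using log2(RPM + 1) of the 454 rows that the filterByExpr function of edgeR 4.0.16 kept (minimum count 10, minimum total 15), with Benjamini-Hochberg adjustment and a threshold of 0.05. A fold change on that scale understates the change of scarce miRNAs. Arm ratios were tested by limma over hairpins named with both arms, and single ratios by two-sided exact permutation. The script was tested on simulated data. Alternatives covered scaling (TMM, RLE, upper-quartile), feature set, filter, pseudocount, test (edgeR, DESeq2 1.42.0 and limma-voom on recovered reads) and each library left out.

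The named miRNAs are the 4 members and the 3 closest named profiles of each. From every list they include its 2 most abundant rows and up to 4 that were called. ssc-miR-148a-3p, ssc-miR-296-3p, ssc-miR-206, ssc-miR-486, ssc-miR-144, ssc-miR-204 and the library values of ssc-miR-30b-5p were chosen after their values were seen. Members and lists were chosen with earlier results of these data known. Rows were matched to list names without arm or copy number. No row of a member was identical to another row. Reads of no pair of libraries agreed within sampling noise (chi-square over degrees of freedom of at least 311), and all 6 were kept. Precursor positions are RefSeq's for Sscrofa11.1. No miRNA sequence was used here, so seeds were not compared.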

Additional observations from a re-analysis of the deposited data

How the results depend on the processing

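ssc-miR-143-3p passed in all 18 alternatives, with differences of 1.20 to 1.35 over the 12 other than leaving out a library. ssc-miR-143-5p and ssc-miR-145-5p kept a positive difference and did not pass in any of the 18, with adjusted p of at least 0.133 and 0.326. ssc-miR-145-3p passed in 1 of 18, without S02, and over the libraries left out its difference was 0.50 to 0.78. The arm ratio of miR-143 passed with a pseudocount of 10 (0.757) and with both arms at 10 RPM or more in 3 libraries (0.736), where fewer hairpins were tested, and in neither the other 2 settings nor the 6 fits without a library (0.61 to 0.82). That of miR-145 stayed positive and did not pass, at 0.06 to 0.51 without a library. The hairpin ratio was 0.65 to 1.14 without a library and 0.93 for the major arms only, the ratio to miR-126 was 0.51 to 0.69 and 0.57 with both arms, and the cluster's share differed by 3.65 to 4.63 points, or 4.56 with predicted miRNAs left out of the total. The number of miRNAs called was 32 of 454 (18 higher, 14 lower). It was 52 with DESeq2 and 7 to 41 without a library, namely 9 without S03, 18 without S04, 7 without S05 or S06, 14 without S07 and 41 without S02; the cause was not tested. Scaled to named miRNAs alone, 16 were called higher and 19 lower, and the median of all tested rows was -0.14, against 1.20 for ssc-miR-143-3p. No paired analysis was possible because black and white libraries have no code in common. With 3 libraries a group, the exact tests of single ratios cannot reach 0.05.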

Other observations

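The nearest other annotated miRNA on chromosome 2 is MIR378-1, which begins 245653 bases beyond MIR145. The row ssc-miR-378, measured 398, 366 and 301 RPM in black libraries S03, S04 and S05, against 341, 549.7 and 797 RPM in white libraries S02, S06 and S07. Black and white libraries overlapped, and the difference of -0.59 in log2(RPM + 1) had the opposite sign to those of the cluster and did not pass (limma, adjusted p = 0.255). The row name carries no copy number, so whether its reads came from MIR378-1 was not determined here. This row was chosen for the position of MIR378-1 after its values were seen.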
